A study of Mus spretus with 8 samples.

Results

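The genes described here encode the subunits of the mitochondrial respiratory chain and of ATP synthase. Members were chosen by gene symbol in the probe annotation: 89 nuclear genes and 12 of the 13 protein genes of mitochondrial DNA, 101 of the 22471 genes on the array. ATP6, the other mitochondrial protein gene, was not analysed here. Of the nuclear genes, 2 are annotated as pseudogenes (Cox5b-ps and Uqcrh-ps1) and are left out of the values by complex. Liver RNA came from 8 male mice of Mus spretus (SPRET/EiJ, an inbred strain of a wild mouse species), with 1 single-colour array per mouse. The DDE group was 4 mice given Harlan feed with 450 mg/kg of p,p'-DDE added in corn oil, from the age of 7 weeks and for 30 days. p,p'-DDE is a long-lived residue that forms when DDT, an insecticide, breaks down. The control group was 4 mice given the same feed with corn oil alone for 30 days, and their age is not given separately. No genetic change is named for either group.

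The respiratory chain passes electrons from NADH and succinate to oxygen and pumps protons out of the mitochondrial matrix. Complex I takes electrons from NADH, complex II from succinate, complex III hands them to cytochrome c, and complex IV reduces oxygen. Complex V, the ATP synthase, uses the returning protons to make ATP, and liver depends on it for gluconeogenesis and urea synthesis. Most subunits are nuclear genes. The rest lie on mitochondrial DNA, where long transcripts of both strands are cut into single RNAs, with ND6 as the sole protein gene read from the strand opposite to the others.

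Each value is a log2 signal as deposited, and a difference of 1 is a doubling. Each gene stands for its probe with the highest mean over the 8 arrays. Levels of different probes were not set against each other. P-values are from limma, two-sided, adjusted by Benjamini-Hochberg over all 42957 probes, and "rose" or "fell" is written where the adjusted p was below 0.05. The background level of an array lay between 7.55 and 7.81, and values of 15.5 or more were counted as near the ceiling of 16. Of the members, 93 were above background in all 8 livers and 3 in none (Cox7b2, Cox8c and Uqcrh-ps1), while 10 had at least 1 value near the ceiling. In bulk tissue, less RNA per cell and fewer cells of a type cannot be told apart. Signals of bright probes also varied with the place of the spot on the array, most on control 4 and DDE 4. Among genes with a mean of at least 12, the median deviation of control 4 from the mean of the arrays was -0.14 in the first of 4 equal parts of the array and -0.74 in the last. For DDE 4 it was -0.51 in the first and 0.18 in the last. Values with this local deviation subtracted, and values without these 2 arrays, are therefore given beside some of the results, not all of them.

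Over the whole chain few genes moved. Of the 101 members, 2 rose (ND1 and ND5), 2 fell (ND6 and Cox8b) and 97 did not pass the test. Over all 22471 genes 3.35% passed, with 2.58% higher and 0.774% lower, and over all probes 3.00%, with 2.34% higher and 0.661% lower. The share of members that passed was near that of the array as a whole. At an unadjusted p below 0.05, 14 members were higher and 10 lower, against 11.4% higher and 4.57% lower over all genes. The groups did not overlap for 8 members that were higher and 8 that were lower after DDE (8.48% and 4.06% of all genes). The median log2 change was 0.05 over the 101 members and 0.01 over all genes. Of the 4 genes called, 3 are mitochondrially encoded and 1 is nuclear.

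**Figure D1:**
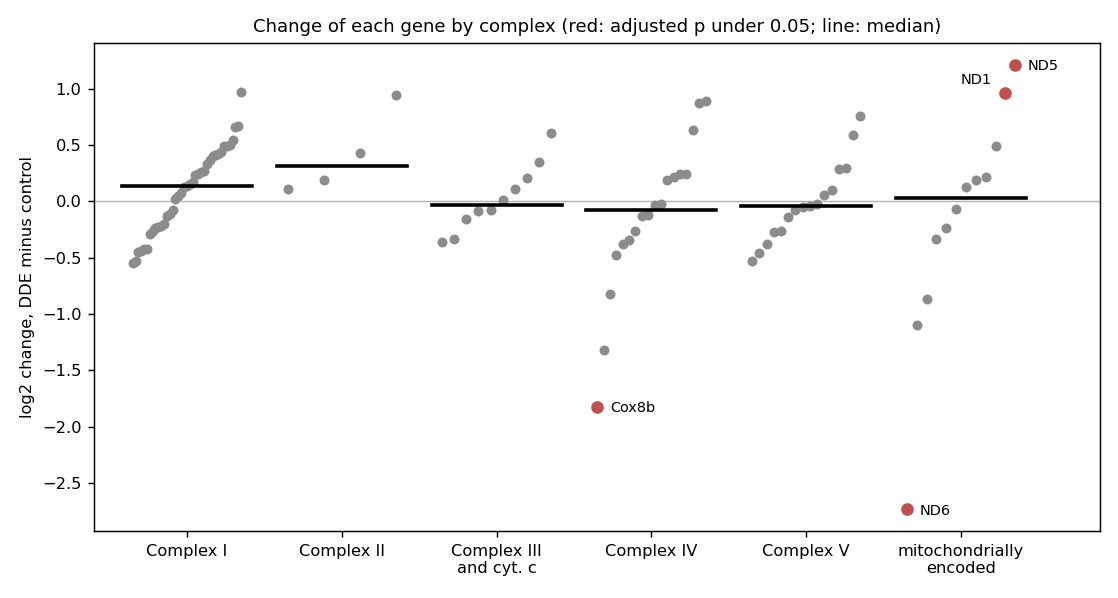
Log2 change (DDE minus control, y axis) of each nuclear member by complex and of the mitochondrially encoded members (x axis), 1 point per gene; red points had an adjusted p below 0.05 and the line is the median. The medians lie between -0.08 and 0.31, and ND6 at -2.73 and Cox8b at -1.82 lie lowest.

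Among the 12 mitochondrially encoded genes 2 rose and 1 fell (2.58% and 0.774% of all genes), and 9 did not pass. Their median change was 0.03, with single genes from -2.73 to 1.21. ND1, a membrane subunit of complex I near its quinone site, had 14.20, 14.42, 14.45 and 14.05 in DDE livers, against 13.41, 13.26, 13.51 and 13.10 in control livers. Every DDE liver was above every control liver. The change was 0.96 ± 0.13 (SE, n = 4 livers each), 1.95-fold, with a limma adjusted p of 0.0157. It was 0.99 with the local deviation subtracted (adjusted p = 0.0136), and the call was lost without DDE 2 (0.91, adjusted p = 0.0572) and without control 2 (0.94, adjusted p = 0.0552).

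ND5, a proton-pumping subunit of the membrane arm of complex I, had 12.35, 12.52, 13.08 and 12.50 in DDE livers, against 11.46, 11.30, 11.61 and 11.22 in control livers. The groups did not overlap. ND5 rose by 1.21 ± 0.17 (SE, n = 4 each), 2.32-fold, with a limma adjusted p of 0.0186. The call was lost without DDE 2 (1.25, adjusted p = 0.0607), without control 2 (1.18, adjusted p = 0.0641), without control 4 and DDE 4 (1.19, adjusted p = 0.0501) and with the local deviation subtracted (0.89, adjusted p = 0.088).

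ND6, the complex I subunit encoded on the opposite strand, had 8.07, 7.75, 7.26 and 7.28 in DDE livers, against 10.85, 11.47, 9.80 and 9.15 in control livers. All 4 control values and 2 of the 4 DDE values were above background. The signal was therefore at least 5.67-fold lower after DDE (log2 change -2.73 ± 0.51 SE, n = 4 each, limma adjusted p = 0.04). The control livers spread widely, with an SD of 1.04. The call passed in 1 of the 8 fits that left out a single array, the fit without control 4 (-3.12, adjusted p = 0.025). The other 7 fits gave changes between -2.90 and -2.34, with adjusted p between 0.0714 without DDE 4 and 0.112 without DDE 2. With an intensity trend and robust variance the adjusted p was 0.0532. ND5 and ND6 meet at their ends on opposite strands of mitochondrial DNA, and the strand read by each probe is not given in the sources used here.

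Other mitochondrial genes had values apart without passing. CYTB, the cytochrome b of complex III, had 13.03, 12.92, 13.48 and 12.96 in DDE livers, against 14.38, 13.93, 13.91 and 13.66 in control livers, with no overlap (-0.87, limma adjusted p = 0.0592). With the local deviation subtracted CYTB fell by 1.95 on the log2 scale (adjusted p = 0.000593). Of its spots, 2 in DDE livers lay in a patch of the array that deviated as a whole, and -0.97 remained without them (adjusted p = 0.0663). ND3, a small complex I subunit, had 12.92, 12.46, 13.40 and 12.27 in DDE livers and 13.98, 14.17, 13.96 and 13.32 in control livers (-1.10, adjusted p = 0.108). Its groups overlapped by 1 liver each, DDE 3 and control 4, and with the local deviation subtracted it fell by 1.39 (adjusted p = 0.00284).

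ATP8, a subunit of the membrane part of ATP synthase, had 14.37, 14.54, 14.41 and 14.24 in DDE livers, against 13.91, 14.10, 13.92 and 13.66 in control livers. Its groups did not overlap either, at a change of 0.49 (limma adjusted p = 0.0686), or 0.30 with the local deviation subtracted (adjusted p = 0.457). ND4 and ND4L, further membrane subunits of complex I, changed by 0.22 and 0.19 with overlapping groups (adjusted p = 0.63 and 0.68). With the local deviation subtracted these were 0.18 and -0.25 (adjusted p = 0.649 and 0.445). COX1, COX2 and COX3, the catalytic core of complex IV, were near the ceiling in all livers but DDE 4 for COX2, so no fold is given for them (adjusted p = 0.617, 0.315 and 0.643). ND2 was above background in 1 of 4 DDE livers and 2 of 4 control livers, which leaves its level unmeasured by this probe.

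**Figure D2:**
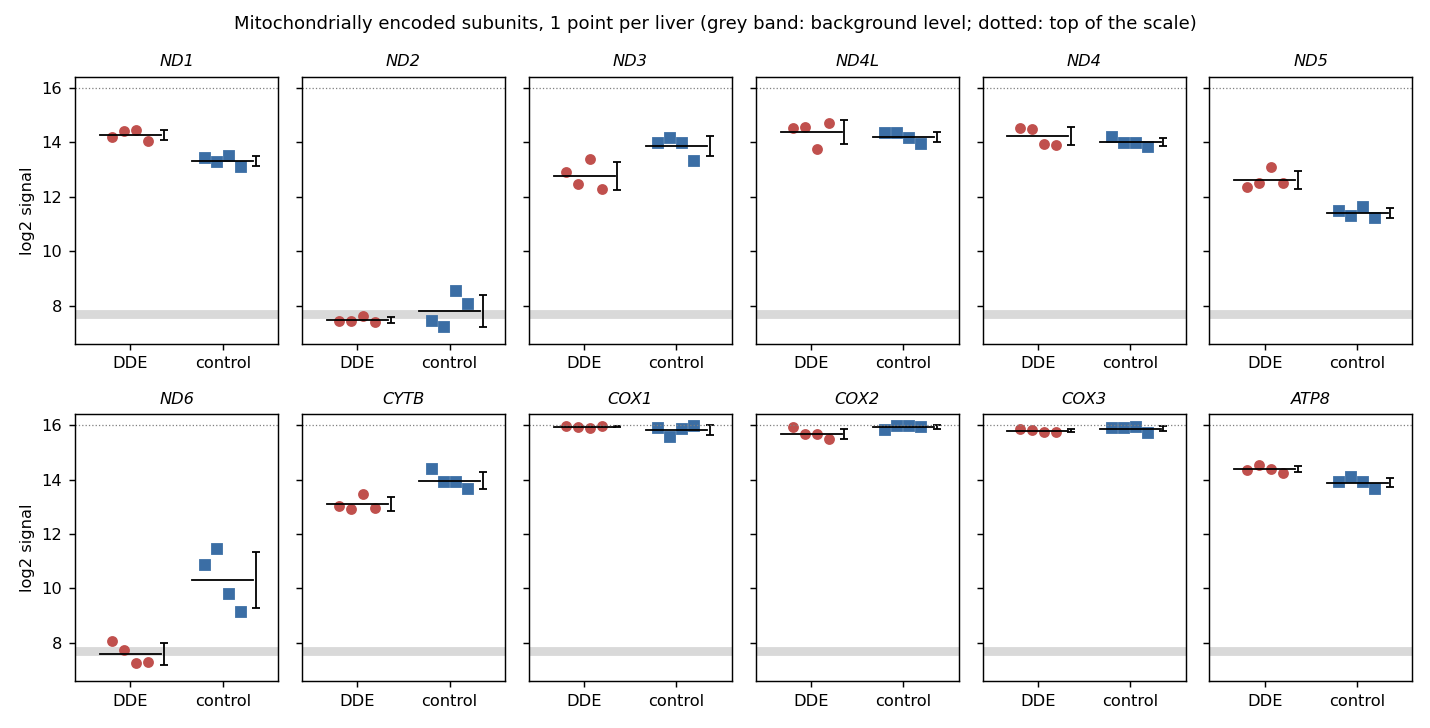
Log2 signal (y axis) of the 12 mitochondrially encoded genes in each DDE and control liver (x axis), with group mean (line) and SD (bar, n = 4); the grey band is the background level and the dotted line the ceiling. ND1 and ND5 are higher in every DDE liver, ND6 and CYTB lower in every DDE liver, and COX1, COX2 and COX3 lie near the ceiling.

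Nuclear-encoded genes gave 0 rises and 1 fall among 89 (2.58% and 0.774% of all genes). At a raw p below 0.05 by limma 11 were higher and 6 lower (11.4% and 4.57% of all genes). The median change of the nuclear genes without the pseudogenes was 0.05. Taken by group, 3 of 12 mitochondrially encoded genes and 1 of 89 nuclear genes passed, and the difference between these shares was not tested. Complex IV held the nuclear call and the widest range of changes, from -1.82 to 0.89 over 18 genes, with a median of -0.08.

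Some complex IV subunits have separate isoforms, with 1 form in liver and another in heart and skeletal muscle. Of 3 muscle-type isoforms, Cox8b fell, while Cox7a1 and Cox6a2 did not pass the test. Cox8b, the muscle and brown fat form of a small structural subunit, had 9.52, 9.31, 9.12 and 9.19 in DDE livers, against 10.47, 11.23, 11.35 and 11.38 in control livers. Every DDE liver was below every control liver and above background. Cox8b fell by 1.82 ± 0.22 on the log2 scale (SE, n = 4 each), 3.54-fold, with a limma adjusted p of 0.0119. It passed with any single array of the 8 left out, and with the local deviation subtracted (-1.65, adjusted p = 0.0148).

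Cox7a1, another muscle and brown fat isoform, had 10.18, 9.80, 10.40 and 10.80 in DDE livers, against 11.06, 11.26, 11.10 and 11.05 in control livers. The groups did not overlap, and the change of -0.82 ± 0.20 (SE) did not pass (limma adjusted p = 0.0866). It passed without DDE 4 (-0.99, adjusted p = 0.0257), without control 4 and DDE 4 (-1.01, adjusted p = 0.0432) and with the local deviation subtracted (-1.14, adjusted p = 0.0258). Cox6a2, the heart and muscle form of a further small subunit, had 9.11, 10.66, 10.53 and 11.12 in DDE livers, against 11.46, 12.20, 11.57 and 11.46 in control livers (-1.32, adjusted p = 0.186). These groups did not overlap either, and DDE 1 was the lowest liver.

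Markers of striated muscle were set beside these isoforms. All 6 of the list (Ckm, Acta1, Myh4, Mylpf, Tnnt3 and Mb) had lower means after DDE, with a median change of -1.01. Of these 0 passed the test (3.35% of all genes), and 2 were lower at an unadjusted p below 0.05 by limma (4.57% of all genes). Mylpf was at background in all 8 livers. The mean signal of the list was between 9.26 (DDE 1) and 11.02 (DDE 4) in DDE livers, against 10.95 to 11.30 in control livers. Mb, the myoglobin gene, had 10.44, 11.59, 11.90 and 11.92 in DDE livers and 12.42, 12.60, 12.52 and 12.42 in control livers (-1.03, adjusted p = 0.169). In DDE 4 the mean of the marker list (11.02) was above control 1 (10.95) and below the other control livers, and Mb (11.92) was below all control livers. In that liver Cox8b (9.19), Cox7a1 (10.80) and Cox6a2 (11.12) were below all control livers too. Cox7a1 and Cox6a2 had their highest DDE value there.

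The adipose list of 5 markers had mean signals of 7.30 to 8.54 in DDE livers and 7.74 to 8.97 in control livers. Of the 5, 0 were above background in every liver. The median change of the list was -0.14, with single markers from -1.8 to 0.06. Means were higher for 1 marker and lower for 4. At an unadjusted p below 0.05 by limma 0 were higher and 0 lower (11.4% and 4.57% of all genes). Cidea had 9.61, 7.53, 7.62 and 7.32 in DDE livers and 8.64, 8.98, 9.72 and 11.94 in control livers. Ucp1, the uncoupling protein of brown fat, had 10.12, 7.15, 7.18 and 7.28 in DDE livers and 7.98, 8.89, 8.98 and 10.07 in control livers. DDE 1 lay among the control livers for Cidea and above all of them for Ucp1, and the other 3 DDE livers were below background for both. Cox8b in DDE 1 was 9.52, below all control livers. The part of muscle or fat RNA in the isoform values was not tested. Hepatocyte markers (Alb, Apoa1, Ttr, Serpina1a, Tat and Cps1) were above background in every liver, with list means of 13.95 to 14.69 in DDE livers and 14.31 to 14.77 in control livers. Of these 6, 4 had values near the ceiling, and Apoa1 fell (at least 1.52-fold lower, limma adjusted p = 0.04).

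**Figure D3:**
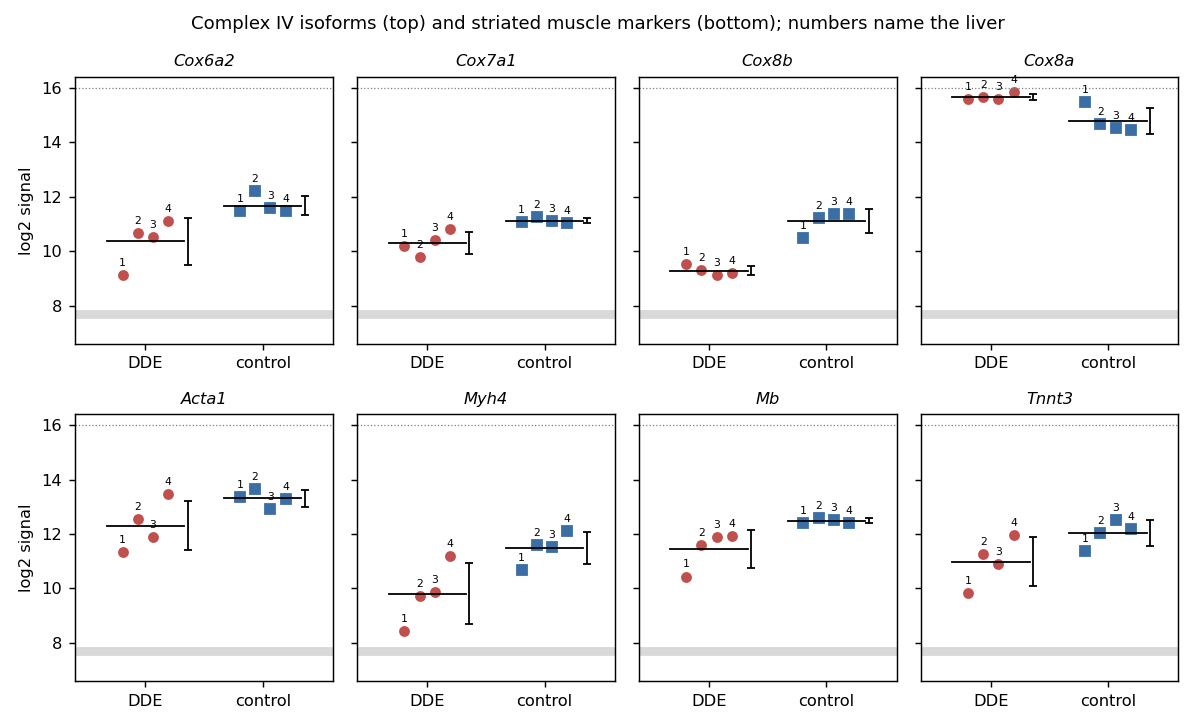
Log2 signal (y axis) of 4 complex IV isoforms (top) and 4 striated muscle markers (bottom) in each DDE and control liver (x axis), with group mean (line) and SD (bar, n = 4), liver numbers above the points, background as a grey band and the ceiling dotted. Cox8b is between 9.12 and 9.52 in all DDE livers, while the muscle markers differ among DDE livers, with DDE 1 lowest.

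The forms of the same subunits that liver uses gave other values. Cox8a had 15.60, 15.66, 15.60 and 15.85 in DDE livers, against 15.50, 14.68, 14.52 and 14.45 in control livers. All 4 DDE livers and control 1 were near the ceiling, so no fold is given for Cox8a (limma adjusted p = 0.104, and 0.0128 without control 1). Its other probe changed by 0.19 (adjusted p = 0.79). Cox6a1 was near the ceiling in all 8 livers. Cox7a2 changed by 0.19 (adjusted p = 0.684), or by -0.02 with the local deviation subtracted (adjusted p = 0.953). Cox4i1, the common form of the largest nuclear subunit, had 14.93, 15.26, 15.46 and 14.30 in DDE livers and 14.49, 14.33, 14.01 and 14.59 in control livers. DDE 4 overlapped the controls, and the change was 0.63 (adjusted p = 0.318). Cox4i2, its lung and hypoxia-linked isoform, was near background, at 7.74 ± 0.161 in DDE livers and 7.76 ± 0.277 in control livers (SD, n = 4 each). Cox6b1 changed by 0.87 with overlapping groups (adjusted p = 0.385) and its testis isoform Cox6b2 by -0.26 (adjusted p = 0.469). Cox7c, a small subunit with 3 probes, changed by -0.34 at the brightest and by 0.69 at the next (adjusted p = 0.307 and 0.481).

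Complex I had 39 nuclear members, of which 0 passed (3.35% of all genes), with a median change of 0.14 and a range from -0.55 to 0.97. The median was 0.01 with the local deviation subtracted and -0.03 without control 4. Unadjusted p was below 0.05 by limma for 5 that were higher and 2 that were lower (11.4% and 4.57% of all genes). Ndufa11, an accessory subunit that stabilises the membrane arm, had 11.07, 11.13, 10.85 and 11.67 in DDE livers and 10.70, 10.55, 9.78 and 9.81 in control livers (0.97, limma adjusted p = 0.13). Ndufs4, an accessory subunit whose loss causes a Leigh-like disease in mice, had 13.62, 13.51, 13.51 and 13.54 in DDE livers and 13.04, 13.05, 13.11 and 12.31 in control livers (0.67, adjusted p = 0.116). Both pairs of groups were apart, with control 4 or control 3 lowest. Ndufs4 passed without control 4 (0.48, adjusted p = 0.0197) and without control 4 and DDE 4 (0.48, adjusted p = 0.028). With the local deviation subtracted, however, its change was 0.14 (adjusted p = 0.642) and that of Ndufa11 was 0.48 (adjusted p = 0.196).

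Ndufs1, the largest subunit and carrier of iron-sulfur clusters, changed by 0.44, Ndufc2 by 0.54 and Ndufa2 by 0.33. With the local deviation subtracted these were 0.05, 0.08 and 0.02. Ndufa13, a subunit also known as GRIM-19, had 15.03, 15.22, 14.67 and 15.16 in DDE livers, against 15.48, 15.41, 15.44 and 15.88 in control livers (-0.53, limma adjusted p = 0.145). Its groups did not overlap. Control 4 was near the ceiling, so the difference is only a bound (at least 1.45-fold lower), and no local deviation was subtracted. Ndufv1, which binds NADH, changed by -0.42 with no overlap (adjusted p = 0.195), or by -0.14 with the local deviation subtracted. Ndufa4, named for complex I but counted today with complex IV, changed by 0.26 (adjusted p = 0.633), and its hypoxia-linked paralogue Ndufa4l2 was near background (7.97 ± 0.179 in DDE livers, 7.82 ± 0.202 in control livers, SD, n = 4 each).

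In complex II, all 4 subunits had higher means after DDE and 0 of 4 passed (3.35% of all genes), with a median change of 0.31. Sdhd, a membrane anchor, had 13.37, 13.60, 13.94 and 13.52 in DDE livers, against 13.31, 12.61, 12.53 and 12.21 in control livers. The groups did not overlap, though control 1 nearly met them (0.94, limma adjusted p = 0.1, and 1.16 with adjusted p = 0.0348 without control 1). The probe of Sdhd lies in the last part of the array, and with the local deviation subtracted its change was -0.06 (adjusted p = 0.697). Sdha, the flavoprotein that oxidises succinate, changed by 0.43, Sdhb, the iron-sulfur subunit, by 0.11 and the other anchor Sdhc by 0.19 (adjusted p = 0.633, 0.883 and 0.522). With the local deviation subtracted these were -0.11, -0.30 and -0.02, so that the brightest probes of all 4 subunits were lower on that scale. The other probe of Sdhc went the other way, with 0.80 as deposited (adjusted p = 0.107) and 0.57 with the local deviation subtracted (adjusted p = 0.0158).

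Complex III with cytochrome c had 10 nuclear members, 0 past the test (3.35% of all genes). At an unadjusted p below 0.05 by limma 0 were higher and 0 lower (11.4% and 4.57% of all genes). Of the 10, 5 had higher and 5 lower means, with a median change of -0.03. Uqcrc1, a core subunit facing the matrix, changed by 0.61 and Uqcrfs1, the Rieske iron-sulfur protein, by -0.33 (limma adjusted p = 0.383 and 0.428). Uqcrc2, the other core subunit, had 10 probes whose changes ran from -0.27 to 0.38, and 0 of them passed. Uqcrq, a small subunit, was near the ceiling at its brightest probe, while its other probe had a change of -0.81 (adjusted p = 0.0857), or -0.92 with the local deviation subtracted (adjusted p = 0.0169).

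ATP synthase had 16 nuclear members, 0 past the test (3.35% of all genes), with changes from -0.53 to 0.76 and a median of -0.04. Atp5c1, the gamma subunit of the rotor, changed by 0.59 at its brightest probe and by -0.64 at its other probe (limma adjusted p = 0.201 and 0.392). With the local deviation subtracted these were 0.02 (adjusted p = 0.935) and -0.92 (adjusted p = 0.036). Atp5mpl, a small membrane subunit, changed by 0.30 (adjusted p = 0.295), or 0.01 with the local deviation subtracted. Of the genes for the ring of c subunits, Atp5g2 had 14.63, 14.29, 15.40 and 15.12 in DDE livers and 14.63, 14.56, 13.80 and 13.41 in control livers (0.76, adjusted p = 0.393), with overlapping groups. The other probe of Atp5g2 changed by 1.41 (adjusted p = 0.0845). With the local deviation subtracted the 2 probes changed by 0.50 and 0.34 (adjusted p = 0.263 and 0.201). Atp5g3 changed by -0.27 (limma adjusted p = 0.654), with 1 DDE and 2 control livers near the ceiling, so no fold is given for it. Atp5g1 was not analysed here. Over the chain, 25 members had more than 1 probe, and for 15 of them the probes differed in the sign of the change. Whether such probes share a sequence is not given in the sources used here.

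The direction of nuclear members differed with the place of their probe on the array. In the first of 4 equal parts of the feature numbers 8 of 22 nuclear members had a positive change (median -0.08), in the second 12 of 27 (-0.09), in the third 14 of 22 (0.17) and in the last 12 of 16 (0.33). All genes with a mean of at least 12 and no value near the ceiling, members included, showed medians of -0.05, 0.09, 0.24 and 0.22 in the same parts. After the local median deviation of each array had been subtracted, the members so treated had medians of -0.28, -0.11, -0.02 and 0.06. These were 21, 23, 17 and 14 members, with medians of -0.08, 0.05, 0.30 and 0.33 as deposited. The genes with a mean of at least 12 had corrected medians of -0.10, 0.02, -0.05 and -0.09. On that scale 9 members passed, 1 higher (ND1) and 8 lower (ND3, ND6, CYTB, Ndufa8, Ndufc1, Cox7a1, Cox8b and Atp5j), against 7.66% of all genes, 4.31% higher and 3.35% lower. ND1 and Cox8b passed on both scales and ND5 as deposited alone. Probes with a mean below 9 and those near the ceiling were left uncorrected. ND6, with a mean of 8.95, was among them, so its values were the same on both scales. Its pass in the second fit (limma adjusted p = 0.0227) therefore says nothing about position.

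**Figure D4:**
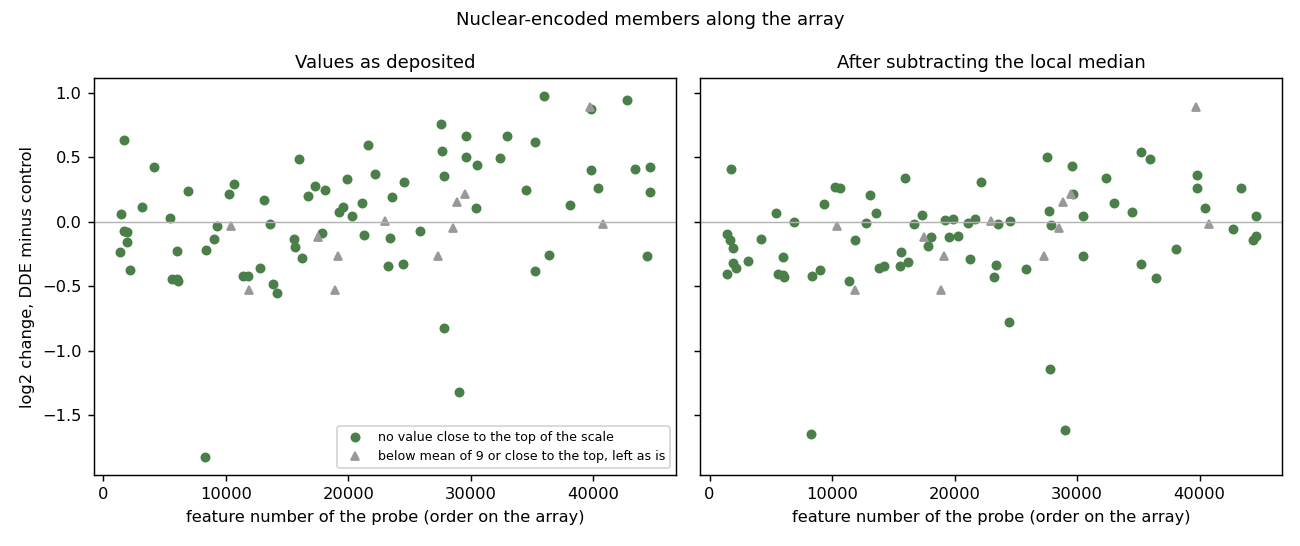
Log2 change (DDE minus control, y axis) of each nuclear member against the feature number of its probe (x axis), as deposited (left) and after the local median deviation of each array was subtracted (right); triangles were left uncorrected. On the left the medians by part of the array are -0.08, -0.09, 0.17 and 0.33, and Cox8b is lowest at -1.82 there and at -1.65 on the right.

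Of the 48 assembly factors, which build the complexes without being part of them, 46 were measured. Of these 2 rose and 0 fell (2.58% and 0.774% of all genes), with a median change of 0.28. The raw p by limma was below 0.05 for 11 higher and 5 lower (11.4% and 4.57% of all genes). Coa5, needed for complex IV assembly, had 10.06, 10.24, 10.32 and 10.42 in DDE livers, against 9.31, 9.18, 9.17 and 8.98 in control livers. All DDE livers were higher, 2.14-fold (limma adjusted p = 0.00676), also with the local deviation subtracted (0.80, adjusted p = 0.0144). The mean of its probes, of which there were 2, changed by 0.70 (adjusted p = 0.0152). Tmem70, needed for ATP synthase assembly, had 11.23, 11.34, 11.22 and 11.31 in DDE livers, against 10.52, 10.82, 10.43 and 10.45 in control livers. It rose 1.65-fold (adjusted p = 0.0171, with 0.0631 without DDE 2, 0.05 without DDE 1 and 0.0646 with an intensity trend and robust variance). With the local deviation subtracted 4 assembly factors passed as higher and 4 as lower (4.31% and 3.35% of all genes), with a median of 0.08.

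Regulators of mitochondrial DNA and of the nuclear subunit genes gave 1 rise and 0 falls among 22 (2.58% and 0.774% of all genes). At a raw p below 0.05 by limma 7 were higher and 1 lower (11.4% and 4.57% of all genes). Mterf3, described in mice as a negative regulator of mitochondrial transcription, had 8.57, 8.65, 8.43 and 8.58 in DDE livers, against 8.22, 8.06, 7.96 and 8.05 in control livers. The groups were apart, a change of 0.48 (limma adjusted p = 0.0292). It passed in 3 of the 8 fits that left out 1 array, with adjusted p from 0.0513 without control 4 to 0.091 without DDE 2 in the others. The adjusted p was 0.0748 without control 4 and DDE 4, 0.0707 without the dimmer probes and 0.152 with an intensity trend and robust variance. Ppargc1a, a coactivator of mitochondrial biogenesis, had 8.46, 8.39, 8.21 and 8.08 in DDE livers, against 9.01, 8.99, 9.09 and 10.31 in control livers. Every DDE liver was lower (-1.07, adjusted p = 0.134), and without control 4, which stood highest, it fell by 0.74 (adjusted p = 0.0275). Tfam, which packages mitochondrial DNA, had 10.49, 10.73, 10.82 and 9.64 in DDE livers and 9.59, 9.79, 9.96 and 9.60 in control livers (0.68, adjusted p = 0.272). It rose without DDE 4 (0.94, adjusted p = 0.021), without control 4 and DDE 4 (0.90, adjusted p = 0.0366) and with the local deviation subtracted (0.47, adjusted p = 0.0224). Nrf1, Gabpa and Esrra, transcription factors of subunit genes, changed by 0.23, -0.20 and -0.13 (adjusted p = 0.631, 0.634 and 0.658).

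Of 82 mitochondrial ribosomal protein genes, which translate the mitochondrially encoded subunits, 1 rose and 0 fell (2.58% and 0.774% of all genes). At a raw p below 0.05 by limma 12 were higher and 1 lower (11.4% and 4.57% of all genes). The median of the 82 was 0.26, or 0.07 with the local deviation subtracted. The gene that rose was Mrpl30, at 2.06-fold (limma adjusted p = 0.0252, with 0.0711 without DDE 2, 0.0649 without DDE 3, 0.0695 without control 2, 0.0709 without control 3 and 0.0513 with an intensity trend and robust variance). With the local deviation subtracted its change was 0.64 (adjusted p = 0.0376). In coenzyme Q synthesis 0 of 12 measured genes passed (3.35% of all genes). The raw p by limma was below 0.05 for 0 lower (4.57% of all genes) and for 1 higher (11.4% of all genes). This was Coq9, a lipid-binding partner of Coq7 (0.78, adjusted p = 0.0917, and 0.0447 with the local deviation subtracted). Among 8 measured genes of uncoupling and of other dehydrogenases that feed the chain, 0 passed (3.35% of all genes). At a raw p below 0.05 by limma 0 were higher and 3 lower (11.4% and 4.57% of all genes). Etfa, which carries electrons from fatty acid oxidation, had the smallest p (-0.48, adjusted p = 0.0721), and the mean of its probes changed by 0.03.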

How the data were processed

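The authors' deposited value table was used as given: log2 array signals of 42957 probes on 8 arrays, normalized by the authors with a method that is not given in the sources used here. Per the labels, total RNA of each liver was labelled with Cy3. A table of platform annotation gave 33009 probes 1 gene symbol, and none to 9948. Array probes follow reference mouse sequence, and samples are Mus spretus. Each probe was fitted with limma 3.58.1 in R 4.3.3, DDE against control, 4 arrays each, with no covariate. The labels count 4 mice a group and name no litter or cage. The p-values therefore set the group difference against the spread between these 8 samples within their groups.

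The members and lists were chosen with earlier results of these data known. Named members were those with an unadjusted p below 0.05, the 2 smallest p of each complex, all complex II and mitochondrially encoded genes and pairs of isoforms. Ndufa8, Ndufc1, Atp5j, Uqcrc2, Uqcrq, Cidea and the pseudogenes were named after their values were seen.

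The background level was the 0.95 quantile of probes for olfactory and vomeronasal receptors. Spots were placed on a grid of 85 columns by feature number. A spot was taken as part of a deviating patch where the median deviation in 7 rows by 5 columns was beyond 0.3. For the local deviation, the median deviation of bright probes in 15 rows by 21 columns was subtracted from probes with a mean of at least 9 and no value of 15.5 or more. Array number limits the precision.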

Additional observations from a re-analysis of the deposited data

Results flagged for a closer look

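In 8 of 118 groups of 4 livers tested, 1 liver stood apart from the other 3 by most of the range of its group, which chance gives in about 1 of 20 groups. COX2 had 15.84 in control 1, against 15.95 to 15.97 in the other controls. Cox6a2 had 12.20 in control 2, against 11.46 to 11.57. Cox8b had 10.47 in control 1, against 11.23 to 11.38, and without that liver its change was -2.04. ND2 had 7.63 in DDE 3, against 7.40 to 7.43, all near background. Ndufa13 had 15.88 in control 4, against 15.41 to 15.48. Ndufs4 had 12.31 in control 4, against 13.04 to 13.11. Ppargc1a had 10.31 in control 4, against 8.99 to 9.09, on a spot in a deviating patch. Mylpf had 7.0 in DDE 1, against 7.30 to 7.35, below background.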

How the results depend on the processing

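The number of probes past the threshold (1289 as reported) was 511 with an intensity trend and robust variance, 2140 with array weights, 9 with the replicate block, 2903 with the position-corrected signal, and 332 (without DDE 2) to 1596 with 1 array left out. The number of members past it (4 as reported) was 9 with array weights, 0 with the replicate block, 9 with position correction, 1 (without DDE 2 or control 2, Cox8b both times) to 5 with 1 array left out. Same-numbered livers did not deviate together throughout (r across bright probes 0.205, 0.139, 0.118 and -0.082), so the numbers were not taken as pairs. With the replicate block the adjusted p was 0.066 for ND1, 0.0673 for ND5, 0.0789 for ND6, 0.091 for Cox8b, 0.0795 for Coa5, 0.0784 for Tmem70, 0.097 for Mterf3 and 0.124 for Mrpl30. Cox8b and Coa5 each passed in all 18 of their other alternatives. For both genes, the alternative with the brightest probe below the top of the scale was the reported fit again. Cox8b has 1 probe, so the mean of its probes also held the same values. Members higher at an unadjusted p below 0.05 by limma (14) were 9 without the dimmer probes (those below the median). With 1 array left out they were 9 to 17. Members lower at that p (10) were 25 with position correction and 8 to 12 with 1 array left out. The share of all genes lower at that p with position correction was not counted. At an adjusted p below 0.05 the share of all genes lower was 3.35% with the correction, against 0.774% as deposited. Medians by position correction were -0.08 for complex II, -0.09 for nuclear and -0.15 for mitochondrially encoded members. Without control 4 and DDE 4 they were 0.07 for complex III and -0.05 for mitochondrially encoded members, and the median of mitochondrially encoded members was 0.19 when probes close to the top of the scale were left out. With 1 array left out the medians ran from -0.03 (without control 4) to 0.16 for complex I, -0.08 to 0.09 (without DDE 4) for complex III, 0.21 to 0.44 for complex II, -0.14 to -0.03 for complex IV and -0.13 to 0.08 for complex V. The causes were not tested. Position correction and leaving out control 4 and DDE 4 together were chosen after seeing the data. Probes at the top of the scale and near background limit what can be measured.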
